A study of Mus musculus with 6 samples.

Results

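The miRNAs described here are miR-200a, miR-200b, miR-200c and miR-141 of the miR-200 family and miR-182 and miR-96 of the miR-183 cluster. They were found by name on a 384-well mouse qPCR plate, as 6 of its 380 named miRNAs, and all 6 had a threshold cycle (Ct) in every sample. The samples were RNA from serum exosomes, small vesicles released by cells into blood, of mice at 2 weeks after ACLT, taken here as surgical transection of the anterior cruciate ligament, a model of osteoarthritis. Of the 6 samples, 3 came from mice given OCExoInhib and 3 from mice given vehicle, and both groups carried the joint injury. The labels do not spell out OCExoInhib, which in the published study blocks vesicle release by osteoclasts, the cells that resorb bone. The sources used here give no strain, sex, age or dose. Equal amounts of RNA from 3 mice per group were pooled according to the design text, which leaves unsaid how a pool relates to the 3 samples of its group. The p-values thus rest on a spread between samples that may be only technical.

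The miR-200 family is made in epithelial cells, where it holds down Zeb1 and Zeb2, the repressors of the adhesion gene Cdh1 (E-cadherin), and those repressors in turn shut off the miR-200 genes. The cluster of miR-183, miR-96 and miR-182 is abundant in sensory cells of the inner ear and retina, and changes in the seed of miR-96 cause hearing loss in mice and people. In bone, miR-141 and miR-200a are known to repress Dlx5 in mouse pre-osteoblasts, and miR-182 is known to favour osteoclast formation.

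The sequences are shown because they set which targets the miRNAs share and how alike the assayed molecules are. Each panel sequence matched 1 RefSeq mature miRNA exactly (GRCm38.p6), the 3p arm for the miR-200 family and the 5p arm for the miR-182 cluster. Capitals mark the seed, bases 2 to 8, which pairs with targets, and sequences run 5′ to 3′.
miR-200a: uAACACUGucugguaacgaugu
miR-141: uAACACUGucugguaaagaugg
miR-200b: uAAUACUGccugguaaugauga
miR-200c: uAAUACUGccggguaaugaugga
miR-429: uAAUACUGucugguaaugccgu
miR-182: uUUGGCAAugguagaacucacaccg
miR-96: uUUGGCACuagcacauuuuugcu
miR-183: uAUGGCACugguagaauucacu

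Seed and gene position divide the family in different ways. The seed AACACUG is shared by miR-200a and miR-141, and no other mouse mature sequence in the RefSeq table used has it, while AAUACUG belongs to miR-200b, miR-200c and miR-429. By position, miR-200b (chr4:156055685-156055706) and miR-200a (chr4:156054911-156054932) lie 752 bases apart on the minus strand of chromosome 4, with miR-429 a further 973 bases on, all inside the long noncoding gene Gm13648. On the minus strand of chromosome 6, miR-200c (chr6:124718324-124718346) and miR-141 (chr6:124717917-124717938) lie 385 bases apart and overlap no other annotated gene. On the same strand of chromosome 6, miR-96 (chr6:30169506-30169528) and miR-182 (chr6:30165962-30165986) lie 3519 bases apart inside the noncoding gene Mirc35hg, which also holds miR-183. The seeds of miR-182 and miR-96 are the same in bases 2 to 7 and differ at base 8. Over their shared length miR-200a and miR-141 differ at 2 bases, as do miR-200b and miR-200c. How well the assays separate such near copies was not tested.

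Serum exosomes of OCExoInhib mice did not differ detectably from those of vehicle mice in any of the 6 miRNAs on the deposited normalization. Log2 levels were compared as OCExoInhib minus vehicle, where the log2 level is the negative of the deposited Ct difference from wells P21 to P23. Differences ran from −0.93 for miR-96 to 0.43 for miR-141, against a median of −0.54 over the 115 miRNAs tested, and the median of the 6 was −0.42. By limma with Benjamini-Hochberg adjustment over the 115, 0 of the 6 passed 0.05, with 0 at an unadjusted p under 0.05, and adjusted p-values lay between 0.866 and 0.886. Of all tested miRNAs, 23.5% passed, 17.4% as lower and 6.09% as higher. In a fit of the 92 without a recurring Ct difference between samples, described below, 1 passed as lower and 4 as higher. The 2 groups overlapped for each of the 6, and 26.1% of all tested miRNAs had groups that did not overlap. Whether the 6 depart from these shares was not tested. The 95% intervals of the differences reached from −2.63 to 2.33 at their extremes. The smallest difference of any miRNA that passed was 2.82 in size. Fewer vesicles and less miRNA per vesicle cannot be told apart in such samples.

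**Figure D1:**
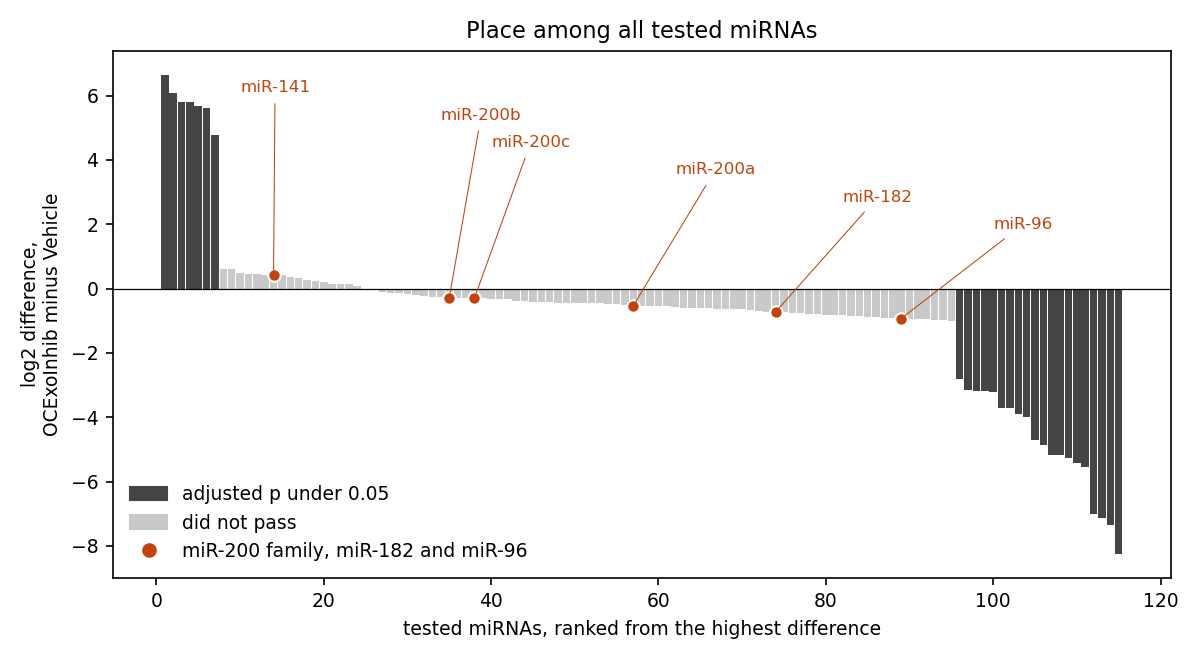
Log2 difference, OCExoInhib minus vehicle, of the 115 tested miRNAs (bars, ranked from the highest), dark where the limma adjusted p was under 0.05. The 6 miRNAs described here (points) lie among the pale bars, from rank 14 for miR-141 to rank 89 for miR-96.

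The scaling decides the sign of these small differences for each miRNA except miR-141, whose difference was above 0 under all 5 normalizations, from 0.43 on the deposited scale to 2.96 with median centring. The wells averaged Ct 30.2 ± 0.531 in the OCExoInhib samples and 30.9 ± 0.318 in the vehicle samples (SD, n = 3 each), a difference of −0.725 cycles with an exact two-sided permutation p of 0.2. With no normalization the median difference of all tested miRNAs was 0.18, and with a global mean it was 0.64. Centring each sample on its median Ct moved it to 1.98, since those medians averaged 29.1 in OCExoInhib and 27.3 in vehicle samples. Relative to the median of all tested miRNAs, the differences were 0.98 for miR-141, 0.26 for miR-200b, 0.24 for miR-200c, 0.012 for miR-200a, −0.18 for miR-182 and −0.39 for miR-96. Under median centring alone, 3 of the 6 passed as higher, miR-141 (log2 difference 2.96, adjusted p 0.0124), miR-200b (2.24, adjusted p 0.0357) and miR-200a (2.00, adjusted p 0.0487), beside 49.6% of all tested miRNAs as higher and 9.57% as lower.

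**Figure D2:**
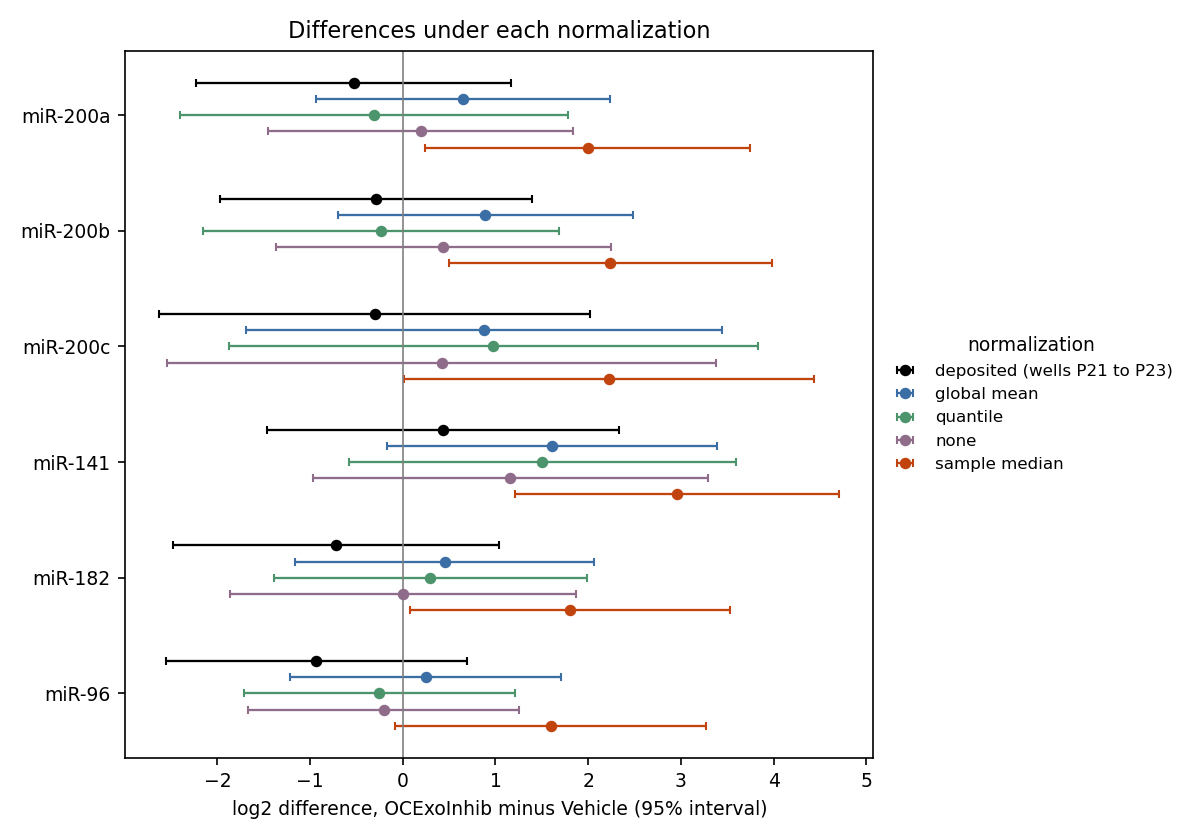
Log2 difference, OCExoInhib minus vehicle, with its 95% interval from limma, for each miRNA under 5 normalizations (colours). On the deposited scale, global mean, quantile and no normalization every interval spans 0, and median centring shifts all 6 upward.

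Single Ct values of the members ran from 24.6 to 33.1, all below the limit of 35 set here for testing. By mean Ct over all samples, miR-96 came up first at 25.2, rank 20 of the 123 miRNAs with a Ct, followed by miR-141 at 26.3 (rank 36) and miR-182 at 26.4 (rank 38). Then came miR-200c at 29.7 (rank 75), miR-200a at 31.5 (rank 92) and miR-200b at 31.9 (rank 95). The sources used here give no assay efficiencies, so this is an order of cycles and not of copies. Within samples the order was not uniform. miR-141 came after miR-96 in every sample, by 0.138 to 2.93 cycles. The gap of miR-182 over miR-141 changed sign between samples, from −1.14 to 1.70 cycles, as did those of miR-200c over miR-182 (−0.353 to 6.71), miR-200a over miR-200c (−1.62 to 4.55) and miR-200b over miR-200a (−0.117 to 1.40).

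miR-200a and miR-200b, which share a cluster on chromosome 4, were the latest of the 6. The log2 level of miR-200a was 0.013, −1.829 and −1.694 in OCExoInhib samples 1, 2 and 3, against −0.749, −1.107 and −0.066 in vehicle samples 1, 2 and 3. OCExoInhib 1 stood above every vehicle sample and the other 2 below all of them. The means were −1.17 ± 1.03 in the OCExoInhib samples and −0.64 ± 0.53 in the vehicle samples (SD, n = 3 each). The log2 difference was −0.53 (SE 0.80, 95% interval −2.23 to 1.17, limma adjusted p 0.866).

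miR-200b showed the same arrangement. Its log2 level was −0.366, −2.477 and −1.577 in the OCExoInhib samples, against −1.056, −1.038 and −1.466 in the vehicle samples. Again OCExoInhib 1 was the highest sample of all 6 and OCExoInhib 2 the lowest. The SD was 1.06 in the OCExoInhib samples and 0.24 in the vehicle samples, which lay close together, where the median SD over tested miRNAs was 0.88 in each group. The log2 difference was −0.29 (SE 0.79, 95% interval −1.97 to 1.39, adjusted p 0.870), and it turned to 0.22 without OCExoInhib 2.

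miR-200c, the chromosome 6 member with the same seed as miR-200b, had the widest spread among vehicle samples of all 115 tested miRNAs, a ranking made after its values were seen. Its Ct was 30.233, 29.777 and 28.555 in the OCExoInhib samples, against 27.195, 29.763 and 32.873 in the vehicle samples. As log2 levels these are 0.117, 0.851 and 1.047 in OCExoInhib samples, against 3.798, 0.806 and −1.681 in vehicle samples. All 3 OCExoInhib values lay between vehicle 1, the highest, and vehicle 3, the lowest. The SD was 0.49 in OCExoInhib and 2.74 in vehicle samples (n = 3 each). The log2 difference of −0.30 (SE 1.09, 95% interval −2.63 to 2.02, adjusted p 0.886) rested on single samples. It was 1.11 without vehicle 1 and −1.63 without vehicle 3.

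miR-141, transcribed beside miR-200c, was the one member with a higher mean in OCExoInhib samples. Its log2 level was 4.794, 4.856 and 3.711 in the OCExoInhib samples, against 2.307, 5.606 and 4.145 in the vehicle samples. Vehicle 1 was the lowest of the 6 samples and vehicle 2 the highest, with the OCExoInhib samples inside that range. In raw cycles the OCExoInhib samples lay within 25.556 to 25.891, with an SD of 0.170, against 1.87 in vehicle samples. The log2 difference was 0.43 (SE 0.89, 95% interval −1.46 to 2.33, adjusted p 0.866). It was −0.42 without vehicle 1 and 1.23 without vehicle 2.

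**Figure D3:**
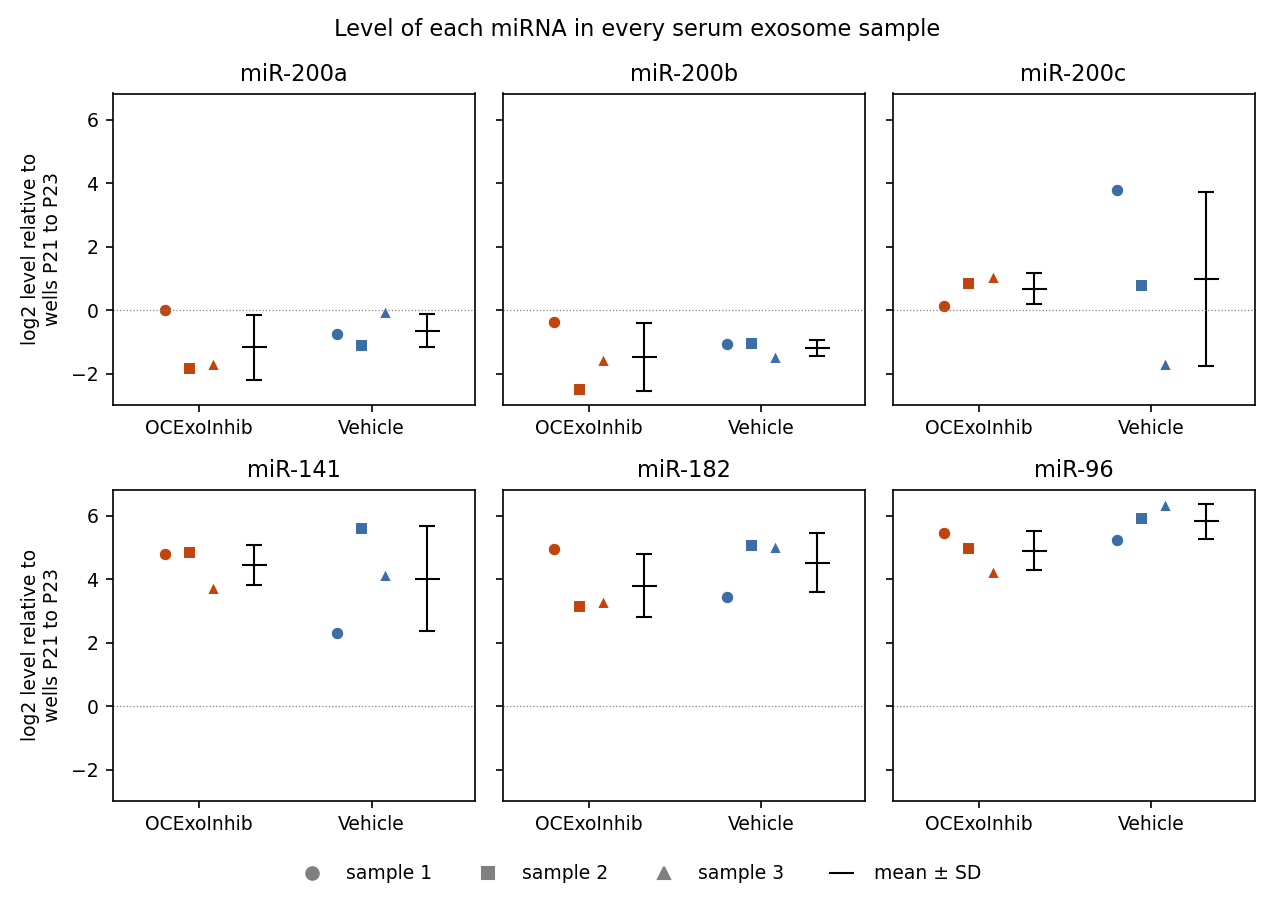
Log2 level relative to wells P21 to P23 of the 6 miRNAs in each OCExoInhib and vehicle sample (points, one shape per sample number, with no pairing implied), with the mean ± SD of each group beside them. The groups overlap in every panel, and vehicle 1 is the highest sample for miR-200c and the lowest for miR-141.

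miR-182, a repressor of the transcription factors Foxo1 and Foxo3, had log2 levels of 4.941, 3.158 and 3.286 in the OCExoInhib samples, against 3.445, 5.085 and 5.031 in the vehicle samples. In each group 1 sample stood apart, OCExoInhib 1 above its 2 companions and vehicle 1 below its own. The log2 difference was −0.73 (SE 0.83, 95% interval −2.48 to 1.03, adjusted p 0.866). The mean raw Ct was 26.4 in both groups, and the log2 difference has the size of the difference of the wells.

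miR-96 spanned the narrowest range of cycles, 24.635 to 25.753. Its log2 level was 5.470, 4.994 and 4.244 in the OCExoInhib samples, against 5.240, 5.934 and 6.330 in the vehicle samples. All 3 OCExoInhib samples lay below the vehicle mean of 5.83, and OCExoInhib 1 lay above vehicle 1. The means were 4.90 ± 0.62 in the OCExoInhib samples and 5.83 ± 0.55 in the vehicle samples (SD, n = 3 each). The log2 difference of −0.93, or 0.524-fold, was the lowest of the 6 (SE 0.76, 95% interval −2.55 to 0.69, adjusted p 0.866). The authors' deposited table gives 1.908-fold for vehicle over OCExoInhib for miR-96. For the other members the authors' deposited table gives folds of vehicle over OCExoInhib from 0.74 for miR-141 to 1.653 for miR-182.

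Cluster mates are processed from a common transcript, and the raw Ct gap between them within a sample is the same under any normalization that subtracts 1 constant per sample, though not under quantile normalization. miR-200a minus miR-200b was −0.379, −0.648 and 0.117 cycles in the OCExoInhib samples, against −0.307, 0.069 and −1.400 in the vehicle samples. miR-182 minus miR-96 was 0.529, 1.836 and 0.958 cycles in the OCExoInhib samples, against 1.795, 0.849 and 1.299 in the vehicle samples. Both gaps were narrow, and that of miR-182 over miR-96 was above 0 in 6 of 6 samples. miR-200c minus miR-141 was 4.677, 4.005 and 2.664 cycles in the OCExoInhib samples, against −1.491, 4.800 and 5.826 in the vehicle samples. This gap was the widest, and in vehicle 1 alone it was turned round. Its mean was 3.78 ± 1.02 in the OCExoInhib samples and 3.05 ± 3.96 in the vehicle samples (SD, n = 3 each).

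None of the 3 gaps differed detectably between the groups. OCExoInhib minus vehicle was 0.243 cycles for miR-200a over miR-200b (exact two-sided permutation p 0.8), 0.737 for miR-200c over miR-141 (exact p 1) and −0.207 for miR-182 over miR-96 (exact p 0.8), each with a Benjamini-Hochberg adjusted p of 1. The smallest p that 3 samples against 3 allow is 0.1. Without vehicle 1 the gap of miR-200c over miR-141 differed by −1.53 cycles in place of 0.737, and that of miR-182 over miR-96 by 0.034. For the pairs that share a seed, miR-200a came up 3.06 to 6.71 cycles after miR-141 in every sample. miR-200b minus miR-200c ran from −0.215 to 4.85 cycles.

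**Figure D4:**
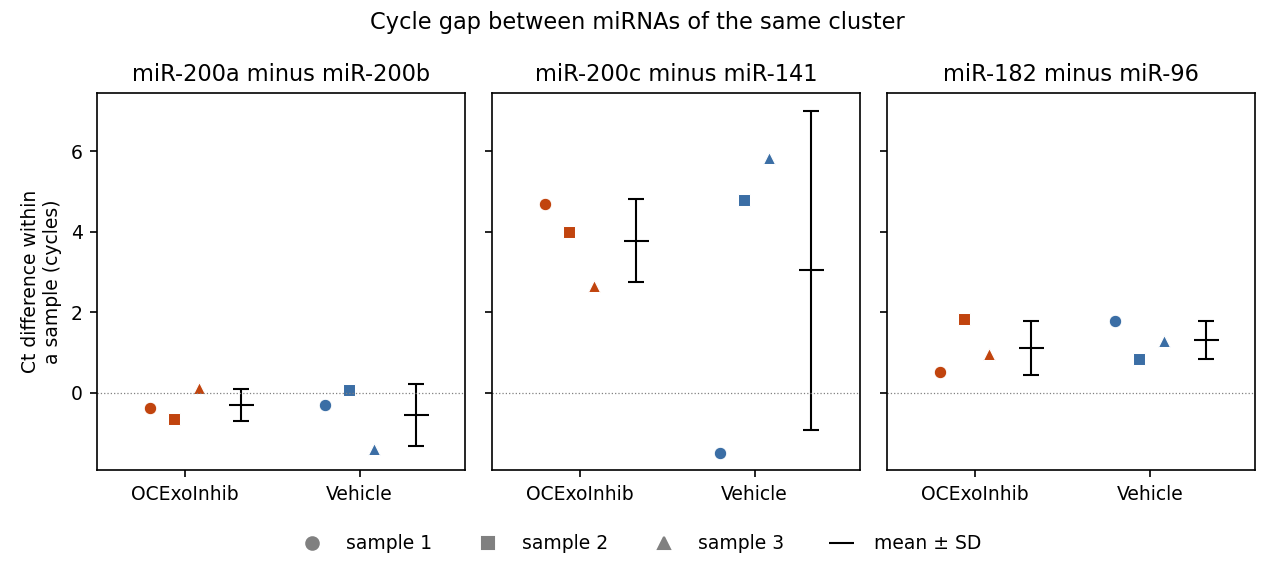
Ct difference within each sample between miRNAs of the same cluster (points, in cycles), with the mean ± SD of the OCExoInhib and vehicle groups. Gaps stay between −1.4 and 1.836 cycles for miR-200a over miR-200b and miR-182 over miR-96, and range from −1.491 in vehicle 1 to 5.826 in vehicle 3 for miR-200c over miR-141.

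The miRNAs whose pattern was most like that of each member were ranked by the root mean square difference of centred values over the 6 samples, in which a constant subtracted per sample cancels. The closest outside the 6 were miR-483 for miR-200a (0.315 cycles), miR-196b for miR-200b (0.312), miR-325 for miR-200c (0.873), miR-192 for miR-141 (0.602), let-7f for miR-182 (0.357) and miR-199a-5p for miR-96 (0.250). Within the 6, miR-200a and miR-200b were each other's closest (0.509 cycles), as were miR-182 and miR-96 (0.483). Of the other 109 tested miRNAs, 7 were closer to miR-200a, 8 to miR-200b, 4 to miR-182 and 7 to miR-96. The nearest member to miR-200c was miR-200b at 1.70 cycles, and 29 of the other 109 tested miRNAs were closer to it. Its cluster mate miR-141 was, within the 6, nearest to miR-182 (0.949), and 13 of the 109 were closer to miR-141. With 6 samples and over 100 candidates this is a description only.

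The rest of both groups had no Ct in the deposited values. Of all named miRNAs, 257 had no Ct in any sample and 0 had one in only some samples. How empty wells were handled is not stated, so an empty well cannot be read as absence. miR-429, the third miRNA of the chromosome 4 cluster, and miR-183, the third of the miR-182 cluster, were on the panel and had no Ct in any sample. Of the 4 listed epithelial miRNAs outside the 6, all on the panel, miR-205 had a Ct, and miR-429, miR-203 of skin and miR-375 of endocrine and gut epithelium had none, where 32.4% of all named panel miRNAs had one. The summed linear level of the 5 epithelial miRNAs with a Ct, 4 of them members, ran from 16.1 to 32.9 relative to the wells in OCExoInhib samples and from 22.3 to 51.6 in vehicle samples. None of the 5 passed.

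Some miRNAs listed as markers of other sources had a Ct too, and others on the same lists had none. The cells that released these markers or the 6 cannot be told from serum. Of 5 erythrocyte miRNAs, miR-144, miR-16 and miR-92a had a Ct and miR-451 and miR-486 had none, with summed levels from 42.0 to 89.3 in OCExoInhib samples and from 44.0 to 261.5 in vehicle samples. miR-16 was lower (log2 difference −5.41, limma adjusted p 0.000193), while miR-144 (−0.56, adjusted p 0.866) and miR-92a (−0.39, adjusted p 0.870) did not pass. Of 3 liver miRNAs, miR-192 and miR-194 had a Ct and miR-122 had none, with sums from 24.4 to 84.2 in OCExoInhib samples and from 46.3 to 176.5 in vehicle samples. miR-194 was lower (−5.27, adjusted p 0.000296), and miR-192 did not pass (−0.16, adjusted p 0.900). Of 4 platelet miRNAs 3 had a Ct, with sums from 13.9 to 37.3 in OCExoInhib samples and from 71.3 to 79.1 in vehicle samples. miR-21 was lower (−4.87, adjusted p 0.000193), and miR-191 did not pass (−0.95, adjusted p 0.866). miR-223 had every Ct past 35 and was not tested. Of 5 leukocyte miRNAs 2 had a Ct and neither passed, with sums from 12.7 to 35.4 in OCExoInhib samples and from 12.3 to 47.9 in vehicle samples. These calls are for the deposited normalization. Over the main fit and its alternatives, miR-194 missed the threshold in 1 of 17 fits, and miR-16 and miR-21 in 0 of 17. miR-144, miR-92a, miR-192 and the leukocyte miR-150 each missed it in 17 of 18 fits. The endothelial pair miR-126-3p and miR-126-5p had no Ct. The part of these sources in the values of the 6 was not tested.

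Of 15 other miRNAs reported to restrain the loss of epithelial character, 14 were on the panel, 8 had a Ct and 7 were tested. On the deposited normalization 1 rose, 2 fell and 4 did not pass, beside 6.09% higher and 17.4% lower of all tested miRNAs, and the median log2 difference was −0.45. miR-34a, which p53 induces, had Ct values of 29.540, 28.970 and 29.918 in the OCExoInhib samples, against 34.115, 36.040 and 38.670 in the vehicle samples. It rose by 6.07 on the log2 scale (SE 1.01, adjusted p 0.000193), with 2 vehicle values past 35. miR-30a fell (log2 difference −3.98, SE 0.90, adjusted p 0.00255), as did miR-145 (−3.20, SE 0.76, adjusted p 0.00379), a smooth muscle miRNA. miR-34b-5p did not pass (−0.91, SE 0.85, adjusted p 0.866). The fall of miR-30a did not pass with global mean (adjusted p 0.0638), quantile (0.267) or no normalization (0.0639), median centring (0.138) or the unmoderated test (0.0993). That of miR-145 did not pass with global mean (0.0831), quantile (0.418) or median centring (0.436), nor the rise of miR-34a by the unmoderated test (0.0649). Under median centring 3 of the 7 passed as higher and 0 as lower, beside 49.6% of all tested miRNAs as higher and 9.57% as lower.

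Some Ct differences between samples of a group recurred in at least 5 miRNAs. Only the most repeated value of each pair of samples was counted, with a tolerance of 0.0015 cycles around it. Such differences were carried by 23 of the 123 miRNAs with a Ct, miR-34a, miR-30a and miR-145 among them. The miRNAs of other sources given above as lower, miR-16, miR-21 and miR-194, carried one too. The origin of these recurring differences is not known, and without the miRNAs that carried one, 0 of the 4 remaining miRNAs of the epithelial-character list passed. None of the 6 members carried one (0 of 6).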

How the data were processed

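Serum exosome RNA was profiled by SYBR Green qPCR over 40 cycles with a System Biosciences profiling kit on a ViiA7, per the labels' protocols. The deposited raw values are threshold cycles, per the file headers, and a lower cycle is a higher level. The authors deposited log2 differences of cycles from a control, per the file headers, and these equalled the raw Ct minus the mean of wells P21 to P23, whose RNA is not named. The ratio in the authors' deposited table is vehicle over OCExoInhib. The tables held 0 further columns of per-sample values. The sources used here state neither cycle thresholds nor the handling of empty wells. Depth is set by cycles, so late values rest on few molecules.

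The 115 miRNAs below Ct 35 in 3 or more of the 6 samples were fitted with limma 3.58.1 in R 4.3.3 (lmFit, eBayes, two-sided), after a check on simulated data, with Benjamini-Hochberg adjustment and a threshold of 0.05. Ct gaps and wells were compared with exact permutation tests in Python 3.11.15. Members, lists and alternatives (normalization, Ct limit, variance model, sample number as block, samples or repeated differences left out) were chosen with earlier results of these data known. The named miRNAs are the 6 members, miR-429 and miR-183, up to 4 of 15 related miRNAs with the smallest p, and for each member the nearest in pattern. Marker miRNAs of other cell types come from fixed lists, and those named among them were chosen after their values were seen. Deviations from group means correlated by 0.0587, 0.0177 and 0.117 between samples of the same number, so numbers were not taken as pairs.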

Additional observations from a re-analysis of the deposited data

How the results depend on the processing

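The 6 miRNAs stayed short of the threshold (0 of 6) under every alternative except sample median centring, where 3 passed. miR-141 kept its sign under every normalization, at 1.61 with global mean, 1.51 with quantile and 1.16 with none, and the other 5 each changed sign under at least 1. Global mean normalization gave log2 differences of 0.65 for miR-200a, 0.89 for miR-200b, 0.88 for miR-200c, 0.45 for miR-182 and 0.25 for miR-96. No normalization gave 0.20, 0.44 and 0.42 for miR-200a, miR-200b and miR-200c, and −0.21 for miR-96. Quantile normalization gave 0.98 for miR-200c and 0.30 for miR-182, and −0.31, −0.24 and −0.25 for miR-200a, miR-200b and miR-96. Median centring gave 2.00, 2.24, 2.22, 2.96, 1.80 and 1.59 for miR-200a, miR-200b, miR-200c, miR-141, miR-182 and miR-96. The cause of the differing sample medians was not tested.

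With each sample left out, the log2 difference ran from −1.12 to −0.20 for miR-200a, −0.84 to 0.22 for miR-200b, −1.63 to 1.11 for miR-200c, −0.42 to 1.23 for miR-141, −1.30 to −0.41 for miR-182 and −1.23 to −0.60 for miR-96. The gaps ran from −0.184 to 0.550 cycles (miR-200a over miR-200b), −1.53 to 2.13 (miR-200c over miR-141) and −0.571 to 0.083 (miR-182 over miR-96). The wells ran from −0.942 to −0.429 cycles. With the replicate block 0 of the 6 passed, 18 miRNAs were lower and 7 higher. The blocked test of the gaps cannot give a p under 0.25, so it says nothing about their stability.

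Of all 115 miRNAs, 27 passed (20 lower, 7 higher), and 24 to 27 with a sample left out (17 to 20 lower, 7 to 7 higher). Quantile normalization gave 16 (9 lower), median centring 68 (11 lower, 57 higher), the unmoderated test 15 (11 lower, 4 higher), and leaving out miRNAs with a repeated Ct difference 5 (1 lower, 4 higher), none of these counts but that of median centring including a member. Requiring Ct values under 35 throughout gave 0 higher, by removing those with late vehicle values. With 3 samples a group the intervals of single miRNAs span more than 3 log2 units, so a change of a few fold was not detectable.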
